A study of Mus musculus with 4 samples.

Results

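The genes of the extracellular matrix and of its remodeling were examined in the olfactory bulbs of *Unc80* knock-in mice. They were chosen by symbol alone and cover the collagens (Col), the laminins (Lam), the matrix proteases of the Adamts and Mmp families, the Timp inhibitors, fibronectin (*Fn1*), and the neural matrix of the hyaluronan proteoglycans *Acan*, *Bcan*, *Ncan* and *Vcan*, the link proteins (Hapln) and the tenascins *Tnr* and *Tnc*. Of the 15818 genes in the authors' table, 90 had such a symbol. The GENCODE M21 annotation of GRCm38 holds 110 protein-coding genes that fit the rule, and the other 20, among them *Col4a3*, *Mmp9* and *Timp1*, were not analysed here. The 90 genes comprised 11 fibrillar collagens, 8 collagens of basement membranes, 20 other collagens, 11 laminins, 10 genes of the neural matrix, fibronectin, 16 Adamts proteases, 10 Mmp proteases and 3 Timp inhibitors.

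In *Unc80* G/G mice, CRISPR/Cas9 changed the serine codon AGC at the ADAR2 editing site to the glycine codon GGC, so that every transcript carries the edited amino acid. They were set against *Unc80* S/S mice, in which the codon became TCC, which still encodes serine but cannot be edited. Both are homozygous knock-ins made in B6D2F1 embryos, both therefore carry an engineered codon, and no wild-type library was among those analysed here. The study used male mice aged 2 to 5 months, and whole-bulb RNA gave 2 libraries for each genotype. The samples are described as pools of 3 mice, with n = 6 per genotype, which was read here as 2 pools of 3 mice, although the wording leaves room for doubt. On that reading a value per library is the average of a pool, and a p-value sets the genotypes against a spread between pools. That spread was estimated largely across genes, as described under the processing.

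The matrix of the brain is built by several kinds of cell. Fibroblasts of the meninges and of the perivascular space secrete fibrillar collagens, chains of a triple helix that assemble into tensile fibers. Endothelial and mural cells lay down the basement membrane of blood vessels, a sheet of type IV collagen and laminin networks. Neurons and glia make a soft matrix with little fiber, in which proteoglycans such as aggrecan, brevican and neurocan are tied to hyaluronan by link proteins and cross-linked by tenascin-R. Metalloproteinases of the Mmp and Adamts families cut these components, and Timp proteins block the metalloproteinases. In the bulb this matrix surrounds the glomeruli and the path of arriving neuroblasts, and ensheathing glia and basement membrane border the entering olfactory axons.

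The table gives for each gene the mean of a genotype as CPM, reads scaled to the counted reads of a library. For 67 of the 90 genes, and for 7634 of all 15818 (48.3%), both means resolved into whole reads for each library behind them, so that a value per library and a test were available. The libraries recovered in this way held 25345718 and 24738078 counted reads in *Unc80* G/G, against 26479648 and 25238203 in *Unc80* S/S. They carry no replicate number, so reads are given below first for the library of a genotype with more and then for the one with fewer counted reads. The 23 matrix genes that could not be split include most of the abundant ones, such as *Timp2*, *Bcan* and *Fn1*, and 13 of them had reads for only 1 of the genotypes. Over the recovered genes, the Euclidean distance of log2 values was 14.3 within *Unc80* G/G, the widest of any pair, and 13.2 within *Unc80* S/S, the narrowest, with 13.5 to 14.1 across genotypes. On the first principal component (36.3% of the variance) 1 library of *Unc80* G/G lay at -8.50 and the other 3 libraries between 1.53 and 5.00, and on the second (33.8%) both *Unc80* G/G libraries were positive, at 6.60 and 1.98, and both *Unc80* S/S libraries negative, at -6.74 and -1.83. *Unc80* itself, in which the engineered codon cannot be seen from a gene table, had 633.1 CPM in *Unc80* G/G and 660.9 CPM in *Unc80* S/S bulbs.

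The DNA at the start sites of the collagens to which the results below return is shown first. *Col4a1* and *Col4a2*, which encode the chains of the main type IV collagen, lie head to head on chromosome 8, and their RefSeq transcripts start on opposite strands and overlap by 22 bases. The stretch below gives these 22 bases in capitals, with 4 bases on either side, on the strand of *Col4a2* (GRCm38.p6, chr8:11312801-11312830, plus strand). The other stretches end at the base before the RefSeq start of *Col5a3* (chr9:20815068-20815222, minus strand) and of *Col25a1* (chr3:130180675-130180844, plus strand), since these collagens came closest to a difference between the genotypes. Capitals in these stretches mark the CCAAT box and the GC box, a motif whose letters are GGGCGG on either strand. In *Col25a1* they also mark the longest repeat of the window, whose 16 letters are ATATATTATGCTAATA. Every motif was searched on both strands.
Col4a1 and Col4a2: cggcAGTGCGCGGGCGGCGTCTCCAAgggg
Col5a3: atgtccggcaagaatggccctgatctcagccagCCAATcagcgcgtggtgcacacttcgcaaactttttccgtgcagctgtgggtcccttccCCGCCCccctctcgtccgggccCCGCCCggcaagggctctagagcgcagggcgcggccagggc
Col25a1: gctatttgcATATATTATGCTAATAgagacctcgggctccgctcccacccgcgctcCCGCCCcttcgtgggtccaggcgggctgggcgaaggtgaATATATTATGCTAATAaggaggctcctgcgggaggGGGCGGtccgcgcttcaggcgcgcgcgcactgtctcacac
*Col5a3* held no TATA box (TATAAA) in its window of 250 bases before and 50 after the start, and the CCAAT box of the printed stretch began 122 bases before the start. In *Col25a1* the repeat began 161 and 75 bases before the start, and no other of the 27025 RefSeq windows held its letters (1 window, 0.0037%). The repeat was chosen after the window had been read. The GENCODE gene model of *Col25a1* begins further upstream, and no GENCODE exon overlaps the printed stretch, which therefore lies in an intron of the longer form. Of the 61 matrix genes with a RefSeq window, 40 held a GC box (65.6%, beside 35.9% of all windows, noncoding genes included), 20 a CCAAT box (32.8%, beside 37.9%) and 1 the AP-1 site TGANTCA (1.64%, beside 7.93%). These matches describe letters and say nothing about binding.

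Against this background the summed level of the matrix differed little between the genotypes. The CPM means of the 90 genes summed to 3015 CPM in *Unc80* G/G and 3009 CPM in *Unc80* S/S bulbs. In whole bulbs, fewer cells of a type and less RNA per cell cannot be told apart. The median log2 fold change (*Unc80* G/G over *Unc80* S/S) of the 90 genes was 0.01, beside -0.01 over all 15818 genes, and *Unc80* G/G was above *Unc80* S/S in 47 of them and below in 43. Of the 90, 65 (72.2%) lay within 1.1-fold between the genotypes, and so did 81.9% of all genes. Summed over the 67 genes with recovered reads, the libraries held 1251 and 1200 CPM in *Unc80* G/G, against 1237 and 1228 CPM in *Unc80* S/S, so that the *Unc80* G/G pair enclosed the *Unc80* S/S pair. By class, the median log2 fold change was 0.03 for fibrillar collagens, 0.04 for basement membrane collagens, 0.03 for the other collagens, -0.01 for laminins, -0.03 for the neural matrix, 0.05 for Adamts proteases, -0.01 for Mmp proteases and -0.02 for Timp inhibitors. All of these medians were at most 0.05 in size. The SD of a class median between libraries of a genotype was 0.03 to 0.10. It rests only on genes with recovered reads, which for the Timp inhibitors was *Timp4* alone, whereas the medians cover all members.

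**Figure D1:**
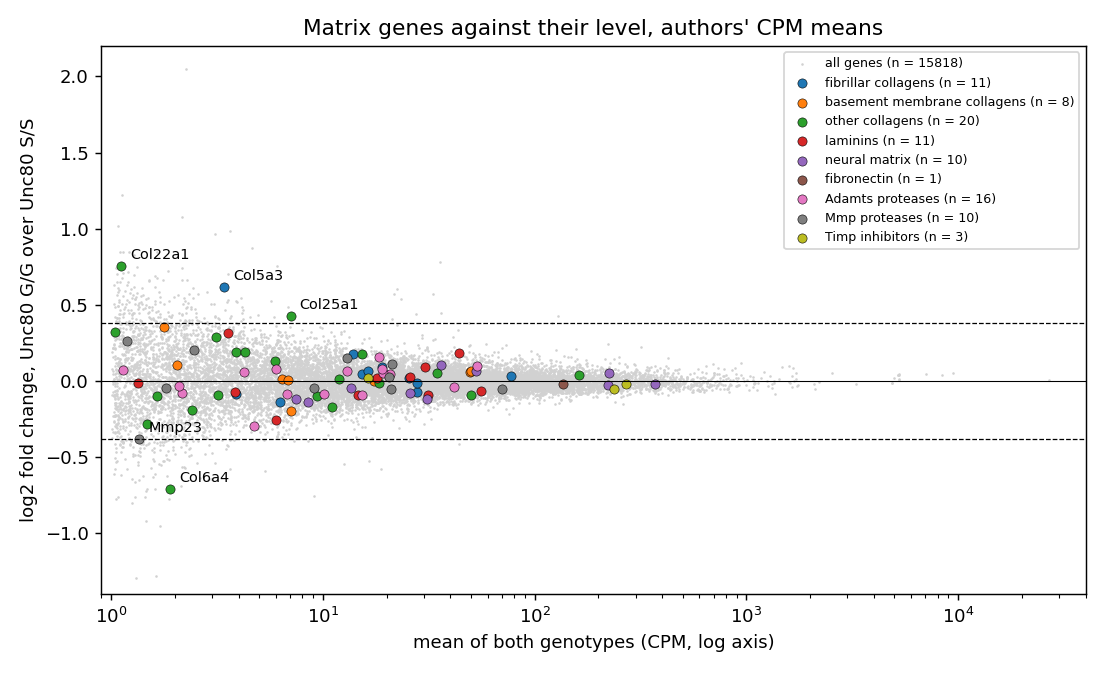
Log2 fold change (*Unc80* G/G over *Unc80* S/S) of the authors' CPM means against the mean of both genotypes in CPM on a log axis. Colored points are the 90 matrix genes by class, grey points are all 15818 genes, and dashed lines mark 1.3-fold. Of the matrix genes, 3 lie above the upper line and 2 below the lower line, and 4 of these 5 have a mean under 5 CPM.

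The genes that departed from this pattern were collagens of low abundance and a metalloproteinase. On the CPM means, *Col5a3*, *Col22a1* and *Col25a1* were more than 1.3-fold higher in *Unc80* G/G bulbs and *Col6a4* and *Mmp23* more than 1.3-fold lower. That was 3 of 90 genes in the upward direction, where 1.42% of all genes lay, and 2 of 90 in the downward direction, where 0.929% lay. Of the 26 matrix genes under 5 CPM, 4 were past 1.3-fold in either direction, beside 10.4% of all genes under 5 CPM, and of the 64 at 5 CPM or more, 1 was, beside 0.232% of all such genes. That 1 gene was *Col25a1*. Past 1.5-fold stood *Col5a3* and *Col22a1*, which were higher, and *Col6a4*, which was lower. The collagens among these 5 genes stand in the pathway table of the study, which was drawn from the same libraries, so their directions are not independent evidence.

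On recovered reads, edgeR's quasi-likelihood test called none of the 67 matrix genes at an adjusted p under 0.05, and 9 of the 7634 tested genes (0.118%) in all. At an unadjusted p under 0.05 stood 4 matrix genes of 67, beside 4.62% of all tested genes, and DESeq2 and limma, which also called none of the 67, gave 2 and 4 such genes. The 4 genes of edgeR were *Col5a3*, *Col25a1* and *Col22a1*, higher in *Unc80* G/G (3 genes, beside 2.67% of all tested genes in that direction), and *Col6a4*, lower (1 gene, beside 1.95%). A share of 4 in 67 is near the background, so these genes are described here one by one and not as a group that changed.

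*Col5a3* encodes a chain of type V collagen, a minor fibrillar collagen that sits inside fibers and sets their diameter. The gene occupies chromosome 9, bases 20770050 to 20815067, minus strand. Its recovered reads were 106 and 102 in the *Unc80* G/G libraries, against 70 and 70 in the *Unc80* S/S libraries. The libraries of a genotype were nearly alike and the genotypes did not overlap. This came to 4.15 CPM in *Unc80* G/G and 2.71 CPM in *Unc80* S/S, a log2 fold change of 0.62 with a standard error of 0.17 (edgeR, unadjusted p = 0.00145, adjusted p = 0.419). The 95% interval of the log2 fold change ran from 0.26 to 0.97. With any 1 library left out, the log2 fold change stayed between 0.58 and 0.65. For the partner chains of type V collagen the interval of the fold included 1. *Col5a1* had 734 and 627 reads in *Unc80* G/G, against 736 and 737 in *Unc80* S/S, and *Col5a2* had 431 and 404 reads in *Unc80* G/G, against 428 and 395 in *Unc80* S/S, with 95% intervals of the fold of 0.86 to 1.06 for *Col5a1* and 0.93 to 1.18 for *Col5a2*.

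*Col25a1* encodes a transmembrane collagen of neurons, whose shed ectodomain is also known as a component of amyloid plaques, and is needed for motor axons to innervate muscle. The gene occupies chromosome 3, bases 130131501 to 130599877, plus strand. Its reads were 211 and 193 in *Unc80* G/G, against 163 and 148 in *Unc80* S/S. Both *Unc80* G/G libraries were above both *Unc80* S/S libraries, and *Col25a1* had the most reads of the 4 collagens. The means were 8.06 CPM in *Unc80* G/G and 6.01 CPM in *Unc80* S/S, at a log2 fold change of 0.42 with a standard error of 0.12 and a fold interval of 1.13 to 1.59 (edgeR, unadjusted p = 0.00153, adjusted p = 0.419). Leaving out a library gave 0.38 to 0.47. Its nearest relatives among the transmembrane collagens differed in sign from each other. *Col23a1* leaned lower, with 48.4 CPM in *Unc80* G/G and 51.7 CPM in *Unc80* S/S. *Col13a1*, a collagen of the neuromuscular junction, leaned higher like *Col25a1* (log2 fold change 0.32, fold interval 0.80 to 1.94). Its reads were 20 and 38 in *Unc80* G/G, against 22 and 26 in *Unc80* S/S, which overlapped.

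*Col22a1*, a collagen of tissue junctions, and *Col6a4*, an alternative chain of type VI collagen, rested on few reads. *Col22a1* (chromosome 15, bases 71795795 to 72034227, minus strand) had 42 and 28 reads in *Unc80* G/G, against 26 and 17 in *Unc80* S/S. The lower *Unc80* G/G library, at 28 reads, was 2 reads above the higher *Unc80* S/S library. Its log2 fold change was 0.75 with a standard error of 0.29 (edgeR, unadjusted p = 0.0168, adjusted p = 0.895), and it was 0.44 to 1.05 with a library left out, where the unadjusted p of edgeR reached 0.236 when the *Unc80* G/G library of 42 reads was dropped and 0.162 when the *Unc80* S/S library of 17 reads was. *Col6a4* (chromosome 9, bases 105989454 to 106096783, minus strand) had 36 and 36 reads in *Unc80* G/G, against 71 and 51 in *Unc80* S/S. The *Unc80* S/S libraries were further from each other than the *Unc80* G/G libraries, yet the genotypes did not overlap. The log2 fold change was -0.71 with a standard error of 0.23 and a fold interval of 0.44 to 0.85 (edgeR, unadjusted p = 0.00488, adjusted p = 0.866), and -0.90 to -0.49 with a library left out, where the unadjusted p reached 0.0965 when the *Unc80* S/S library of 71 reads was dropped.

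**Figure D2:**
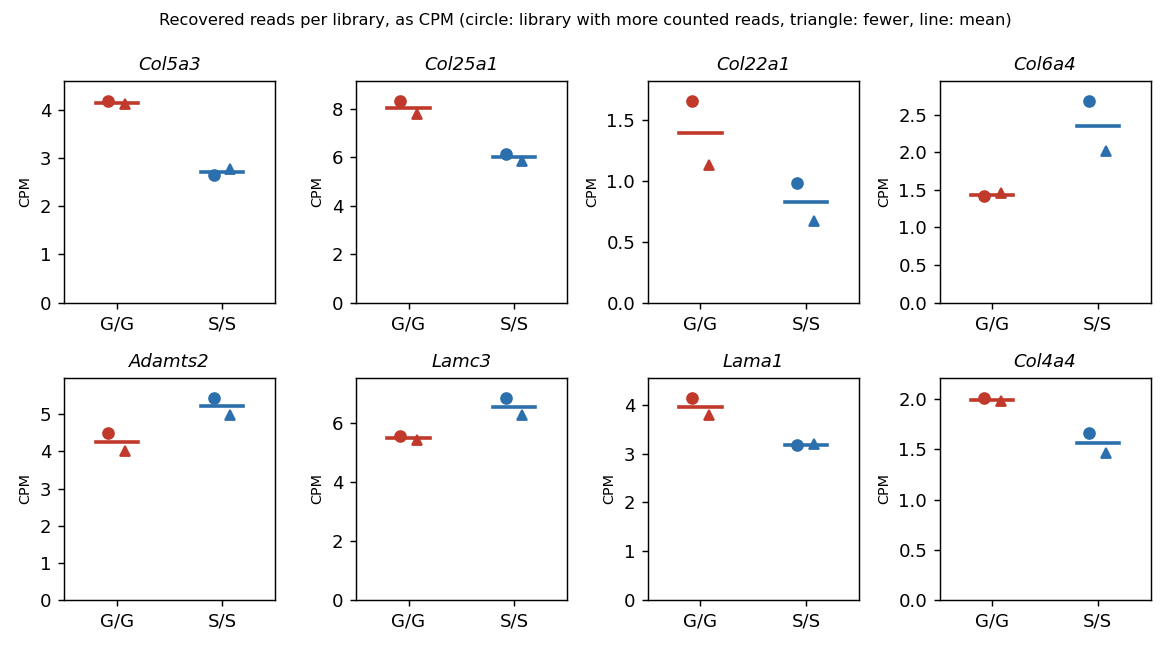
Recovered reads as CPM in each library for 8 matrix genes, *Unc80* G/G left and *Unc80* S/S right in each panel, with circles for the library with more and triangles for the library with fewer counted reads, and lines for the mean of 2 libraries. *Col5a3* had 4.15 CPM in *Unc80* G/G and 2.71 CPM in *Unc80* S/S, and in all 8 genes the genotypes do not overlap, as was the case for 32.7% of all recovered genes.

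The other 4 genes in that plot had intervals that include 1. *Adamts2*, the protease that trims the amino end of fibrillar procollagens, had 114 and 99 reads in *Unc80* G/G, against 144 and 126 in *Unc80* S/S (log2 fold change -0.30, fold interval 0.66 to 1.01, edgeR unadjusted p = 0.0561, adjusted p = 0.990). *Lamc3*, the gamma chain of laminins outside the main vascular forms, had 141 and 134 reads in *Unc80* G/G, against 181 and 158 in *Unc80* S/S (log2 fold change -0.25, fold interval 0.70 to 1.01). *Lama1*, the alpha chain of embryonic and pial laminin, had 105 and 94 reads in *Unc80* G/G, against 84 and 81 in *Unc80* S/S (log2 fold change 0.32, fold interval 0.98 to 1.59). None of these genes reached an unadjusted p of 0.05. *Col4a4*, a type IV chain known best from the kidney and the inner ear, had 51 and 49 reads in *Unc80* G/G, against 44 and 37 in *Unc80* S/S (fold interval 0.92 to 1.76). Over all matrix genes with reads, no overlap between genotypes was seen in 24 of the 67 genes (35.8%), beside 32.7% of all recovered genes. For *Mmp23*, the fifth gene past 1.3-fold, they did overlap, with 25 and 34 reads in *Unc80* G/G, against 27 and 52 in *Unc80* S/S.

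For most of the other genes, the recovered reads bounded the difference. The 95% interval of the fold lay within 1.2-fold in either direction for 26 of the 67 genes, within 1.3-fold for 37 and within 1.5-fold for 49. The lowest library value among the 67 was 17 reads, in *Col22a1*.

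**Figure D3:**
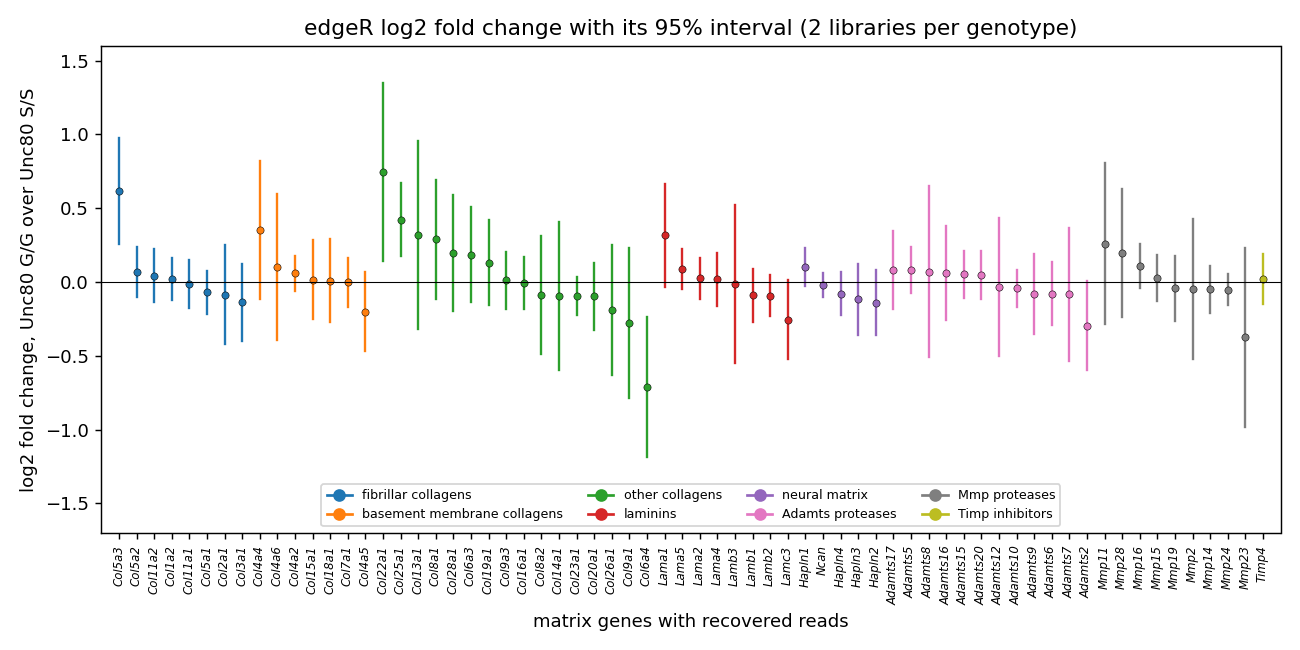
Log2 fold change (*Unc80* G/G over *Unc80* S/S) from edgeR on recovered reads with its 95% interval (bars) for 66 of the 67 matrix genes with reads in all 4 libraries, colored by class. The intervals of *Col5a3*, *Col25a1*, *Col22a1* and *Col6a4* lie to one side of 0, and those of the other 62 plotted genes include 0.

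Among the fibrillar collagens, none of the classical fiber formers with recovered reads had an interval that left out 1. Type I collagen, the main collagen of connective tissue, is built of *Col1a1* and *Col1a2* chains. *Col1a2* had 628 and 659 reads in *Unc80* G/G, against 667 and 643 in *Unc80* S/S, with a fold interval of 0.92 to 1.12. For *Col1a1* the *Unc80* G/G mean of 14.7 CPM could not be split, the *Unc80* S/S reads were 340 and 331, and the log2 fold change of the CPM means was 0.18. *Col3a1*, the fiber of soft tissue and vessel walls, had 158 and 143 reads in *Unc80* G/G, against 181 and 161 in *Unc80* S/S. Those libraries did not overlap, but the fold interval of 0.76 to 1.09 includes 1. *Col2a1*, the cartilage collagen, had 91 and 97 reads in *Unc80* G/G, against 104 and 102 in *Unc80* S/S. The type XI chains, which nucleate cartilage fibers and are also made in neural tissue, had overlapping libraries. *Col11a1* had 771 and 623 reads in *Unc80* G/G, against 699 and 752 in *Unc80* S/S, and *Col11a2* had 414 and 364 reads in *Unc80* G/G, against 418 and 362 in *Unc80* S/S. The fibrillar collagen with the highest CPM per kilobase of exon was none of these but *Col24a1*, a collagen of developing bone and brain, with 78.0 CPM in *Unc80* G/G and 76.3 CPM in *Unc80* S/S. *Col27a1*, a collagen of cartilage, had 19.7 CPM in *Unc80* G/G and 18.5 CPM in *Unc80* S/S.

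In the basement membrane, the chains of the shared start site differed from *Unc80* S/S by nearly the same small amount. *Col4a2* had 1336 and 1186 reads in *Unc80* G/G, against 1264 and 1235 in *Unc80* S/S, with a fold interval of 0.96 to 1.13. *Col4a1*, whose start overlaps that of *Col4a2* in the sequence above, had 1357 and 1207 reads in *Unc80* G/G, and its *Unc80* S/S mean of 48.8 CPM, which could not be split, stood beside 51.2 CPM in *Unc80* G/G. The log2 fold changes of the CPM means were 0.07 for *Col4a1* and 0.06 for *Col4a2*. Per kilobase of exon their ratio was 0.90 in both genotypes, and by the longest coding transcript it was 0.99 in *Unc80* G/G and 0.98 in *Unc80* S/S. *Col4a5* and *Col4a6* face each other on the X chromosome. *Col4a5* had 176 and 155 reads in *Unc80* G/G, against 228 and 165 in *Unc80* S/S, and *Col4a6* had 60 and 46 reads in *Unc80* G/G, against 65 and 37 in *Unc80* S/S. Their *Unc80* S/S libraries differed from each other by more than the genotypes did. *Col18a1*, the precursor of endostatin, and *Col15a1*, its relative at the outer face of the basement membrane, differed by less than 0.02 on the log2 scale of the CPM means. *Col7a1*, the anchoring fibril collagen, had 17.5 CPM in either genotype.

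The laminins are trimers of an alpha, a beta and a gamma chain. Of the 9 with recovered reads, none had an unadjusted p under 0.05. The libraries of 5 (55.6%) did not overlap, beside 32.7% of all recovered genes, and these 5 went both ways. The chains of the vascular forms were *Lama4* with 505 and 403 reads in *Unc80* G/G, against 488 and 438 in *Unc80* S/S, and *Lama5* with 774 and 788 reads in *Unc80* G/G, against 798 and 719 in *Unc80* S/S. *Lama2*, the astrocyte and muscle form, had 667 and 643 reads in *Unc80* G/G, against 680 and 650 in *Unc80* S/S. The beta chains leaned lower in *Unc80* G/G by less than 0.10 on the log2 scale. *Lamb1* had 371 and 339 reads in *Unc80* G/G, against 403 and 378 in *Unc80* S/S, and *Lamb2* had 816 and 699 reads in *Unc80* G/G, against 859 and 808 in *Unc80* S/S. *Lamc1*, the gamma chain of most laminins, had 54.5 CPM in *Unc80* G/G and 57.0 CPM in *Unc80* S/S. *Lama3*, best known from epithelia, had 46.6 CPM in *Unc80* G/G and 41.1 CPM in *Unc80* S/S. *Lamb3*, a beta chain best known from epithelia, had 30 and 37 reads in *Unc80* G/G, against 41 and 29 in *Unc80* S/S, which overlapped.

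The remaining collagens held the widest range of fold changes, from -0.71 to 0.75 on the log2 scale. Type VI collagen, a beaded filament around cells, is assembled from *Col6a1*, *Col6a2* and a longer chain such as *Col6a3*. *Col6a1* had 164.1 CPM in *Unc80* G/G and 159.6 CPM in *Unc80* S/S, and *Col6a2* had 16.2 CPM in *Unc80* G/G and 14.4 CPM in *Unc80* S/S. Per kilobase of exon, *Col6a1* was 19.2 times as high as *Col6a2* in *Unc80* G/G and 21.1 times in *Unc80* S/S, and by the longest coding transcript 11.5 and 12.6 times. *Col6a3* had 118 and 110 reads in *Unc80* G/G, against 113 and 94 in *Unc80* S/S, and *Col6a4* is described above. On the CPM means *Col6a2* and *Col6a3* both leaned higher in *Unc80* G/G by 0.18 and 0.19 on the log2 scale. Type IX collagen coats cartilage fibers, and its chains were *Col9a2* at 10.5 CPM in *Unc80* G/G and 11.7 CPM in *Unc80* S/S, *Col9a3* with 314 and 287 reads in *Unc80* G/G, against 323 and 293 in *Unc80* S/S, and *Col9a1* with 38 and 29 reads in *Unc80* G/G, against 43 and 41 in *Unc80* S/S. The vascular and corneal type VIII chains were *Col8a1* with 104 and 69 reads in *Unc80* G/G, against 72 and 74 in *Unc80* S/S, and *Col8a2* with 95 and 61 reads in *Unc80* G/G, against 87 and 84 in *Unc80* S/S. In both, the *Unc80* G/G libraries lay further apart than the *Unc80* S/S libraries and overlapped them. *Col28a1*, a collagen of peripheral nerve, had 110 and 98 reads in *Unc80* G/G, against 72 and 115 in *Unc80* S/S, so its mean fold of 0.19 on the log2 scale was smaller than the gap within *Unc80* S/S. *Col12a1* and *Col16a1*, which decorate fibers, had 35.3 and 18.4 CPM in *Unc80* G/G and 34.0 and 18.5 CPM in *Unc80* S/S, and *Col19a1*, made by interneurons in the mouse brain, had 147 and 165 reads in *Unc80* G/G, against 132 and 162 in *Unc80* S/S.

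The genes of the neural matrix had a narrow range of fold changes, from -0.14 to 0.10 on the log2 scale. The 10 genes summed to 989.4 CPM in *Unc80* G/G and 992.2 CPM in *Unc80* S/S. *Ncan*, the hyaluronan-binding proteoglycan neurocan, had 9443 and 8928 reads in *Unc80* G/G, against 9871 and 9396 in *Unc80* S/S, and a fold interval of 0.93 to 1.04. *Bcan*, brevican, had 220.2 CPM in *Unc80* G/G and 224.2 CPM in *Unc80* S/S. *Tnr*, tenascin-R of oligodendrocytes and interneurons, had 228.0 CPM in *Unc80* G/G and 220.1 CPM in *Unc80* S/S. *Acan*, aggrecan of perineuronal nets, had 29.7 CPM in *Unc80* G/G and 32.3 CPM in *Unc80* S/S, and *Vcan*, versican, had 53.8 CPM in *Unc80* G/G and 51.4 CPM in *Unc80* S/S. The link proteins split by sign. *Hapln1* had 976 and 894 reads in *Unc80* G/G, against 951 and 849 in *Unc80* S/S, and *Hapln4*, the link protein of brevican at inhibitory synapses, had 672 and 583 reads in *Unc80* G/G, against 710 and 660 in *Unc80* S/S. *Hapln2*, of the nodes of Ranvier, had 203 and 204 reads in *Unc80* G/G, against 233 and 230 in *Unc80* S/S, and *Hapln3* had 190 and 169 reads in *Unc80* G/G, against 205 and 197 in *Unc80* S/S. The libraries of *Hapln1*, *Hapln2* and *Hapln3* did not overlap. That was 3 of the 5 neural matrix genes with recovered reads, beside 32.7% of all recovered genes. All 4 fold intervals of the link proteins included 1, and the largest log2 fold change in size was the -0.14 of *Hapln2*. Fibronectin, a glycoprotein of plasma and of vessel walls, had 134.8 CPM in *Unc80* G/G and 136.6 CPM in *Unc80* S/S.

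**Figure D4:**
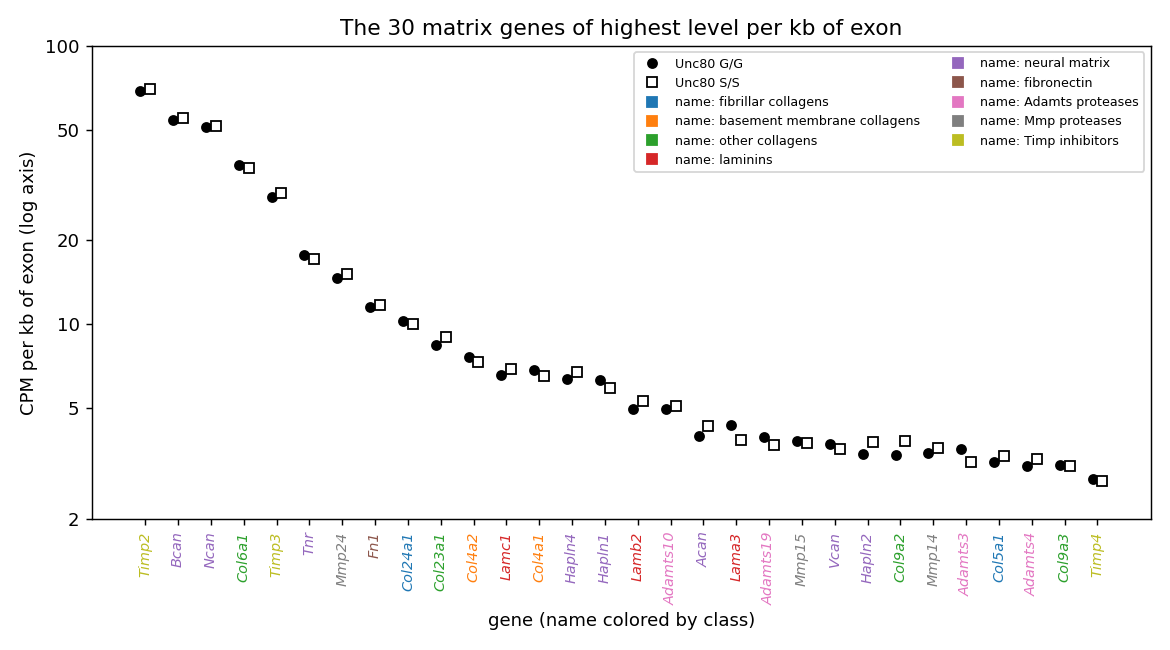
CPM per kilobase of exon on a log axis for the 30 matrix genes of highest level, *Unc80* G/G (filled circles) left of *Unc80* S/S (open squares), with gene names colored by class. *Timp2*, *Bcan* and *Ncan* lead the order in both genotypes, and *Col6a1* is the highest collagen.

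Ordered by CPM per kilobase of exon, the scale on which genes of different length may be compared, the matrix was led by an inhibitor and by the neural proteoglycans. *Timp2* stood at 69.0 in *Unc80* G/G and 69.8 in *Unc80* S/S, *Bcan* at 54.2 in *Unc80* G/G and 55.2 in *Unc80* S/S, and *Ncan* at 51.0 in *Unc80* G/G and 51.8 in *Unc80* S/S. *Bcan* and *Ncan* were neighbors within 1.1-fold of each other on this scale, whereas by the longest coding transcript *Bcan* stood at 70.7 and *Ncan* at 51.4 over both genotypes, and as *Bcan* has no value per library their order was not tested. Then came *Col6a1*, at 37.5 in *Unc80* G/G and 36.4 in *Unc80* S/S, *Timp3*, *Tnr*, *Mmp24*, *Fn1*, *Col24a1* and *Col23a1*. Of these 10 genes, 9 were also among the highest 10 when the length of the longest coding transcript was used. The neural matrix made up 32.7% of the summed CPM per kilobase in *Unc80* G/G and 33.0% in *Unc80* S/S, Timp inhibitors 21.8% and 22.1%, fibrillar collagens 5.88% and 5.70%, and basement membrane collagens 4.26% and 4.12%. The order of the classes was the same in both genotypes.

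No protease or inhibitor with recovered reads had an unadjusted p under 0.05. Among the Timp inhibitors, *Timp2* had 268.7 CPM in *Unc80* G/G and 271.8 CPM in *Unc80* S/S, and *Timp3*, which is bound to the matrix, had 233.3 CPM in *Unc80* G/G and 241.7 CPM in *Unc80* S/S. Its reads are uncertain, since 21.3% of its exon bases overlap *Syn3* on the opposite strand. *Timp4* had 395 and 426 reads in *Unc80* G/G, against 420 and 416 in *Unc80* S/S. Of the 10 Mmp genes, 9 had recovered reads. *Mmp24*, a membrane-anchored protease of neurons, had 1688 and 1748 reads in *Unc80* G/G, against 1926 and 1754 in *Unc80* S/S, and *Mmp14*, the main membrane-anchored collagenase, had 550 and 482 reads in *Unc80* G/G, against 545 and 558 in *Unc80* S/S. *Mmp16*, a relative of *Mmp14*, had 554 and 543 reads in *Unc80* G/G, against 542 and 508 in *Unc80* S/S, and *Mmp2*, the soluble gelatinase that *Mmp14* activates, had 50 and 40 reads in *Unc80* G/G, against 54 and 42 in *Unc80* S/S. The class summed to 161.3 CPM in either genotype. Of the exon bases of *Mmp24*, 13.6% overlap a gene on the opposite strand, so its reads are uncertain too.

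Among the 12 Adamts genes with recovered reads, *Adamts2*, described above, had the lowest p. The proteases that cut aggrecan, brevican and versican were *Adamts5* with 499 and 484 reads in *Unc80* G/G, against 500 and 461 in *Unc80* S/S, *Adamts4* at 14.9 CPM in *Unc80* G/G and 15.8 CPM in *Unc80* S/S, *Adamts1* at 13.4 CPM in *Unc80* G/G and 12.7 CPM in *Unc80* S/S, and *Adamts15* with 502 and 482 reads in *Unc80* G/G, against 522 and 459 in *Unc80* S/S. These were within 1.1-fold of each other between the genotypes. *Adamts3*, which together with *Adamts2* trims procollagens and is known to cut reelin, leaned the other way than *Adamts2*, at 19.4 CPM in *Unc80* G/G and 17.4 CPM in *Unc80* S/S. Per kilobase of exon the class was led by *Adamts10* with 987 and 1061 reads in *Unc80* G/G, against 1139 and 1041 in *Unc80* S/S, and by *Adamts19* at 55.3 CPM in *Unc80* G/G and 51.7 CPM in *Unc80* S/S.

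Genes that make, bind or decorate the collagens were counted from fixed lists of 109 partner genes, of which 104 were in the table and 58 had recovered reads. None was called by edgeR after adjustment, and at an unadjusted p under 0.05 stood none in the upward direction and 6 (10.3%) in the downward direction, beside 2.67% and 1.95% of all tested genes in these directions. Of the 12 small leucine-rich and other proteoglycans with recovered reads, 3 were among the 6. *Lum*, lumican, had 69 and 57 reads in *Unc80* G/G, against 101 and 88 in *Unc80* S/S (log2 fold change -0.54, edgeR adjusted p = 0.866). *Fmod*, fibromodulin, had 693 and 554 reads in *Unc80* G/G, against 746 and 759 in *Unc80* S/S (log2 fold change -0.23), and *Ogn*, osteoglycin, had 520 and 471 reads in *Unc80* G/G, against 636 and 527 in *Unc80* S/S (log2 fold change -0.18). In all of these, which were picked by their p, the libraries did not overlap, as was the case for 32.7% of all recovered genes. Other small leucine-rich proteoglycans had overlapping libraries, such as *Bgn*, biglycan, with 1331 and 1028 reads in *Unc80* G/G, against 1270 and 1289 in *Unc80* S/S, and *Aspn*, asporin, with 43 and 47 reads in *Unc80* G/G, against 48 and 45 in *Unc80* S/S. The other 3 of the 6 were *Ntn4*, a laminin-related netrin of basement membranes (log2 fold change -0.15), *Crtap*, a helper of proline hydroxylation in collagen (-0.33), and *Sdc1*, the matrix receptor syndecan-1 (-0.29). Over the 104 genes the median log2 fold change was -0.03, and 65.4% were lower in *Unc80* G/G, as were 52.8% of all genes. Past 1.3-fold stood 2 of the 104, *Lum* and the collagen crosslinker *Loxl2* (1.18 CPM in *Unc80* G/G and 1.57 CPM in *Unc80* S/S), both lower, and none was higher.

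Markers of the cells that make matrix were read beside these values. Of the 12 markers of meningeal and perivascular fibroblasts, all in the table, 11 were lower in *Unc80* G/G, beside 52.8% of all genes. Their median log2 fold change was -0.12, and *Lum* was the 1 of the 5 with recovered reads at an unadjusted p under 0.05. *Lum* and *Dcn* also stand in the proteoglycan list above, so the lists are not independent. The marker that was higher, *Pdgfra*, is also a marker of the oligodendrocyte lineage. Summed over those 5, the libraries held 58.7 and 48.1 CPM in *Unc80* G/G, against 62.6 and 56.2 CPM in *Unc80* S/S, which overlapped. Of the 11 fibrillar collagens, 4 were lower in *Unc80* G/G. Markers of mural cells had a median of -0.12 and those of endothelium -0.04, and over the recovered ones the libraries held 110.2 and 110.0 CPM in *Unc80* G/G, against 110.7 and 102.5 CPM in *Unc80* S/S for mural cells, and 104.3 and 112.7 CPM in *Unc80* G/G, against 114.4 and 102.4 CPM in *Unc80* S/S for endothelium. Most of the mural sums came from *Rgs5*, which was higher in *Unc80* G/G, at 89.9 CPM against 84.3 CPM in *Unc80* S/S. *Notch3* and *Abcc9* also leaned higher, and the other mural markers in the table were lower. Among these the smooth muscle actin *Acta2* was more than 1.3-fold lower, at 2.93 CPM in *Unc80* G/G and 4.36 CPM in *Unc80* S/S. Markers of the choroid plexus, which is no part of the bulb, had a median log2 fold change of 0.25 over 8 genes, of which 4 were past 1.3-fold higher in *Unc80* G/G. *Ttr*, transthyretin, was called, with 117 and 66 reads in *Unc80* G/G, against 34 and 12 in *Unc80* S/S (log2 fold change 2.03, edgeR adjusted p = 0.0007356). *Htr2c*, a serotonin receptor, had 125 and 175 reads in *Unc80* G/G, against 56 and 112 in *Unc80* S/S, and *Tmem72* had 57 and 45 reads in *Unc80* G/G, against 36 and 30 in *Unc80* S/S, each at an unadjusted p under 0.05 but not called. *Aqp1*, a water channel also made in other cells, was lower, with 677 and 676 reads in *Unc80* G/G, against 934 and 770 in *Unc80* S/S. Its unadjusted p was 0.000408 (edgeR), and it was not called either (adjusted p = 0.156). On the CPM means *Kl* and *Otx2* were also lower, at log2 fold changes of -0.17 and -0.26, and *Clic6* and *Kcnj13* were higher, at 0.41 and 0.09. The list summed to 46.9 CPM in *Unc80* G/G and 46.2 CPM in *Unc80* S/S, of which *Aqp1* made up 27.0 CPM in *Unc80* G/G and 32.9 CPM in *Unc80* S/S. The part of these cells in the collagen values was not tested. Markers of bulb neurons, among them *Omp* of the sensory axons, were present at 5751 CPM in *Unc80* G/G and 5768 CPM in *Unc80* S/S over 15 genes.

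Collagens also varied between the pools of 1 genotype. Of the 34 collagens with reads in both *Unc80* G/G libraries, 27 (79.4%) were higher per counted read in the library with more counted reads, beside 52.9% of all genes with such reads, and all 8 basement membrane collagens were. In *Unc80* S/S it was 15 of 33 collagens (45.5%), beside 54.3% of all genes, and 6 of 7 basement membrane collagens (85.7%). The difference between the *Unc80* G/G pools exceeded counting noise (chi-square at an unadjusted p under 0.05) in 11 of the 34 collagens (32.4%), beside 13.1% of all genes, and that between the *Unc80* S/S pools in 7 of 33 (21.2%), beside 10.6%. The *Unc80* G/G share was 30% of 10 laminins, 33.3% of 6 neural matrix genes, 28.6% of 14 Adamts and 0% of 9 Mmp proteases. For markers it was 71.4% of 7 fibroblast, 60% of 5 neuron, 37.5% of 8 endothelial and 12.5% of 8 mural genes. The largest chi-square values of collagens in *Unc80* G/G were those of *Col11a1* with 771 and 623 reads, *Col18a1* with 204 and 141 reads and *Col16a1* with 512 and 411 reads. Among the laminins, *Lama4* with 505 and 403 reads and *Lamc1* with 1465 and 1267 reads leaned the same way, and *Lama5* with 774 and 788 reads did not. *Adamts19*, with 1303 and 1466 reads, had a larger chi-square than any collagen and was lower in the library with more counted reads. Of the neural matrix genes, 5 of 6 were higher in that *Unc80* G/G library. So were 6 of 7 fibroblast markers, at a median ratio of 1.27, 4 of 5 bulb neuron markers, 5 of 8 choroid plexus markers, 4 of 8 mural markers and 1 of 8 endothelial markers. The part of these cells in the gap was not tested.

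**Figure D5:**
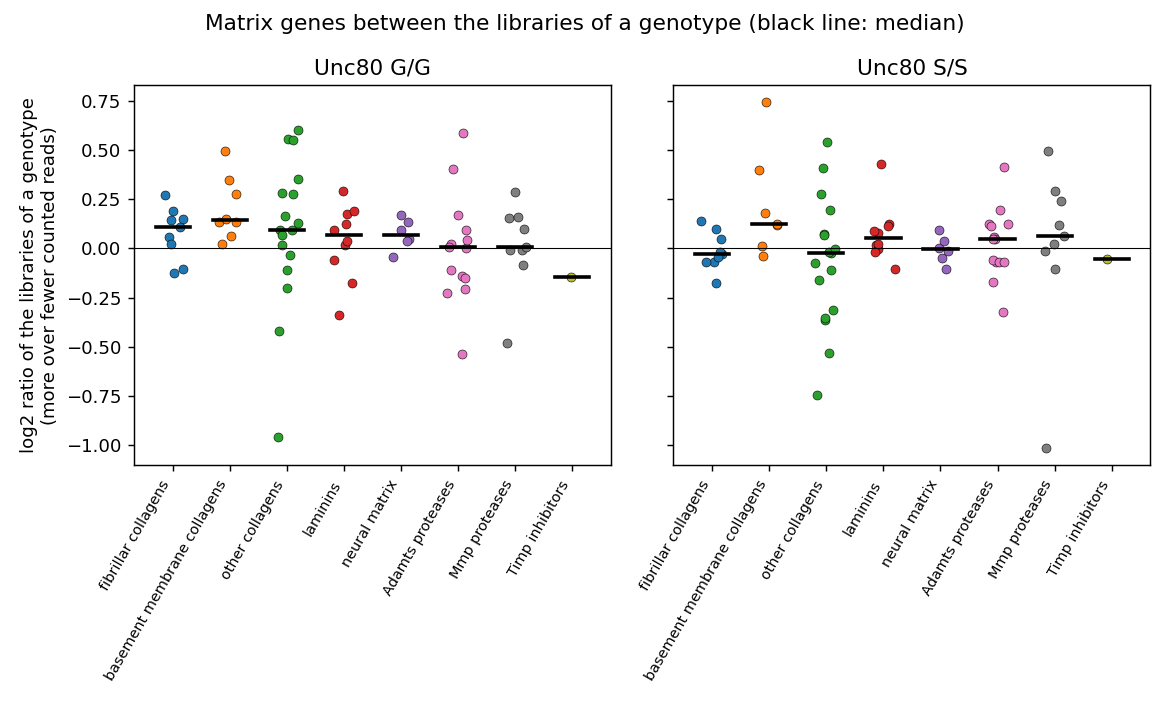
Log2 ratio between the 2 libraries of a genotype (more over fewer counted reads, per counted read) for matrix genes by class, *Unc80* G/G left and *Unc80* S/S right, with black lines for class medians. Of the basement membrane collagens, 8 of 8 lie above 0 in *Unc80* G/G and 6 of 7 in *Unc80* S/S, and of all collagens 27 of 34 in *Unc80* G/G and 15 of 33 in *Unc80* S/S.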

How the data were processed

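Olfactory bulb RNA of *Unc80* G/G and *Unc80* S/S mice was sequenced as 4 libraries, 2 per genotype, as 75 bp paired-end reads. The kit is named differently in the methods (total RNA, stranded) and in the labels (mRNA). The deposited counts per library are total reads, 35694633 and 35465913 in *Unc80* G/G and 35800890 and 38051810 in *Unc80* S/S. The authors trimmed and aligned the reads (GRCm38, mm10) and compared the genotypes in Partek. The sources used here do not give the aligner, the annotation or the test. The deposited table of the authors gives the mean CPM of each genotype (998014 and 998057 CPM in all) for 15818 genes, none with a mean under 1 CPM over both genotypes. Its p-value, adjusted p-value, ratio and fold change columns hold the authors' own comparison and were not used.

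Each mean was written as whole reads of 2 libraries, with a fixed CPM per read and an offset of 0.0001 CPM. A fit was kept where the chance of any fit was under 1e-04. On a simulated table, 96.9% of whole values up to 20 CPM were recovered, and 0 of 3923 other values were split. Recovery reached 74.1% of genes under 2 CPM and 11.3% above 50 CPM. These recovered counts, computed from the authors' means, went into edgeR 4.0.16 (quasi-likelihood test, counted reads as library size, Benjamini-Hochberg over the 7634 recovered genes, R 4.3.3). edgeR shares information on spread across these genes, so a p-value or interval rests largely on other genes (mean degrees of freedom 26.9). Simulated with 200 changed genes among these 7634, it called 78% of 1.5-fold and 95% of 2-fold changes, and also 12 unchanged genes. On the recovered reads it called 9 genes, and *Col5a3*, at 1.53-fold, was not among them (edgeR, adjusted p = 0.419). The share called with fewer changed genes, or among genes of few reads alone, was not tested. The simulation gave all genes the same dispersion (0.00117), so the share called among genes that vary more was not tested either. Alternatives were TMM factors, DESeq2 1.42.0, limma 3.58.1 on log2(CPM + 1), at least 20 reads in at least 2 libraries, a chance limit of 1e-06, and leaving out each library. Genes under the 90-gene rule were named with reads where recovered or past 1.3-fold, with the 4 highest per kilobase of a class, those of largest fold at 5 CPM or more, and others to complete a class. The values of 1 member are not reported here, though it stays in the counts and sums. Lengths and coordinates are from GENCODE M21, sequences from RefSeq (GRCm38.p6). The genes, lists and tests were chosen with earlier results of these data known. Tables and plots were made with Python 3.11.15, numpy 2.4.6, pandas 2.3.3 and matplotlib 3.10.9.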

Additional observations from a re-analysis of the deposited data

How the results depend on the processing

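The 4 collagens at an unadjusted p under 0.05 kept their sign in every alternative, and no matrix gene was called by any of them, where the smallest adjusted p of a matrix gene was 0.342 (limma). The number at an unadjusted p under 0.05 was 4 in edgeR, 2 in DESeq2 and 5 to 7 with a library left out, 7 without the *Unc80* G/G library with more counted reads. The 9 called genes of the whole table became 13 with TMM factors, 1 with DESeq2, 2 of 4814 with the chance limit of 1e-06, and 2 to 4 with a library left out, where the lone library is assumed to vary like the other genotype. The filter on reads removed no gene. Of matrix genes past 1.3-fold, 3 were higher and 2 lower in *Unc80* G/G, against 1 and 0 among genes of 5 CPM or more, against 2 and 1 on log2(CPM + 1), where *Col25a1* dropped below, and against 3 and 1 when centred on the median of all genes. Past 1.5-fold, 2 were higher and 1 lower, against 0 and 0 both on log2(CPM + 1) and among genes of 5 CPM or more. Low genes limit all of these counts. No paired analysis was possible because the recovered libraries carry no replicate numbers. Lengths of the longest coding transcript, used beside exon lengths, were added after the data were seen.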
